A study of Mus musculus with 16 samples.

Results

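This report concerns H3K9me3, a histone mark of repressed chromatin, at genes for drug-metabolizing and retinol-metabolizing enzymes in mouse small intestinal crypts. Members were the H3K9me3 peaks whose annotated gene was named as a cytochrome P450 of families 1 to 4 (Cyp), a UDP-glucuronosyltransferase of families 1 and 2 (Ugt), a sulfotransferase (Sult), a glutathione S-transferase (Gst), a retinol dehydrogenase (Rdh), an aldehyde dehydrogenase of the Aldh1 group or a carboxylesterase (Ces). The rule read only gene names. It found 283 of 212313 peaks, at 97 of 14216 annotated genes. The same names found 174 of 47065 regions of H3K9me2, a second repressive mark. Selection by letters also took in Aldh18a1, an enzyme of proline synthesis, and the folate enzymes Aldh1l1 and Aldh1l2.

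All animals were C57BL/6 mice. In the KO group, loxP-flanked Smarcad1 was deleted by Vil-cre, a Cre recombinase under the Villin promoter that is active in the intestinal epithelium. Smarcad1 is an ATP-dependent chromatin remodeling factor. WT animals carried intact Smarcad1; whether they held floxed alleles or Cre, and the age of the animals, was not given in the sources used here. Each mark had 3 WT and 3 KO ChIP libraries and 1 input library per genotype. Whole crypt isolates were used, so cells other than epithelium kept Smarcad1. The study calls the libraries biological replicates, but the labels tie none to a single animal, so the p-values measure the spread between libraries. Of 12 epithelial marker genes 2 held an H3K9me3 peak, of 5 immune genes 2, and of 5 stromal and endothelial genes 3. These counts do not measure cell content, and fewer modified cells and less mark per cell cannot be told apart in bulk chromatin.

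Cytochrome P450 enzymes oxidize drugs, steroids and fatty acids, and transferases then attach a glucuronide, a sulfate or glutathione so that the product can be excreted. Retinol dehydrogenases convert retinol to retinal, and Aldh1a enzymes convert retinal to retinoic acid, a hormone-like signal in the gut. Many of these genes lie in tandem arrays of similar copies. H3K9me3 is typical of repeats and of silent gene arrays.

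The sequence at the centre of a peak gives a sample of the DNA it covers, and the position of the signal within a peak was not analysed here. The called peaks of smallest p of the Rdh, Cyp, Gst and Ces families are shown, each with 300 bases around the peak centre on the plus strand of GRCm38.p6. CG dinucleotides, the sites of DNA methylation, are in capitals. The Rdh16 stretch (chr10:127819951-127820250) held 1 CG and was 86.3% soft-masked, that is, marked as repeat or low-complexity sequence in the genome file. The Cyp2c65 stretch (chr19:39099526-39099825) held 5 CG and was 91.3% masked, the Gstz1 stretch (chr12:87152551-87152850) held 1 CG and was 30.7% masked, and the Ces2a stretch (chr8:104746501-104746800) held 13 CG and was 76.0% masked.
Rdh16: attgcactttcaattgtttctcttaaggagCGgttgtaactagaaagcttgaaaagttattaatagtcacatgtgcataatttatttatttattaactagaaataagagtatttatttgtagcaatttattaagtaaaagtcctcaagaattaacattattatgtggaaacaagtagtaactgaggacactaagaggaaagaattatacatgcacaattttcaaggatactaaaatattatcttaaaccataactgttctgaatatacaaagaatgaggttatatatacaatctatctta
Cyp2c65: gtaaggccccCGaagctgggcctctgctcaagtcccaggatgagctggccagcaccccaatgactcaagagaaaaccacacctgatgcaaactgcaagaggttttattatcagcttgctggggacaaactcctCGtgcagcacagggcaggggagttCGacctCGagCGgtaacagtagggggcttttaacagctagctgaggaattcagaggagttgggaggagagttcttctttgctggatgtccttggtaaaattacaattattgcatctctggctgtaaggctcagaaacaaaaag
Gstz1: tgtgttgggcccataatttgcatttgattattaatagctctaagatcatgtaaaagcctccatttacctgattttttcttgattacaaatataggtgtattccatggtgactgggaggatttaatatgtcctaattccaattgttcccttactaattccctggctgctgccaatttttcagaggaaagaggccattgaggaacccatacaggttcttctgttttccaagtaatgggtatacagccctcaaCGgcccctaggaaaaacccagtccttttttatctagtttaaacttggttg
Ces2a: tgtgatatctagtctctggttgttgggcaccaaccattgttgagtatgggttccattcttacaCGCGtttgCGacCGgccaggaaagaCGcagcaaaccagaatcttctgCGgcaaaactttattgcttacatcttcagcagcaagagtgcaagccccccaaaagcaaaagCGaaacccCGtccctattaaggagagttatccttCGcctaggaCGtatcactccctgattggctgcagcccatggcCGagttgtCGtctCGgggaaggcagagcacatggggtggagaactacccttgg

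Called peaks on different chromosomes also shared sequence with each other. The strongest Rdh16 peak, in an intron, aligned over 1765 bases with the peak at the pseudogene Cyp2j7-ps1, with 86.9% identity. The longest alignment between called peaks on different chromosomes joined an intron of Cyp4b1 to Sult2a8 over 3717 bases, with 87.0% identity. From each alignment 150 bases without a gap are shown, with the bases that differ within the pair in capitals (17 in the first pair and 14 in the second). The Rdh16 stretch (chr10:127819927-127820076) is on the plus strand and its partner (chr4:96187831-96187980) on the minus strand. The Cyp4b1 (chr4:115633494-115633643) and Sult2a8 (chr7:14420074-14420223) stretches are both on the plus strand.
Rdh16: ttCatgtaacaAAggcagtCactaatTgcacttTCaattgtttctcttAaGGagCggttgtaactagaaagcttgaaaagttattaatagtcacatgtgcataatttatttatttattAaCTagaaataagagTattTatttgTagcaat
Cyp2j7-ps1: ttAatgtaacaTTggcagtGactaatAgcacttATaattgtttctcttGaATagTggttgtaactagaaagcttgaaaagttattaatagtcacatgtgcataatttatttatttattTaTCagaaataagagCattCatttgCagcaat
Cyp4b1: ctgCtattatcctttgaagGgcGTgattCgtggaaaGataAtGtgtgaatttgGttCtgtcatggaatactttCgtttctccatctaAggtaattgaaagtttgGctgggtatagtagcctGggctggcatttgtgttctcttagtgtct
Sult2a8: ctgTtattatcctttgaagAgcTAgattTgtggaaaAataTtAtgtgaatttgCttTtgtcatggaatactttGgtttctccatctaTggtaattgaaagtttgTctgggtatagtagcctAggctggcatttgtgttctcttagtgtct

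To ask whether loss of Smarcad1 changed the mark at these genes, H3K9me3 was compared between KO and WT peak by peak. Of the 283 member peaks, 42 were lower in KO and 0 were higher, at 30 of the 97 genes. This was 14.8% of the members, against 2.46% of all peaks called lower and 0.252% called higher, and against 3.92% called lower among the 77485 peaks that had an annotated gene (limma, Benjamini-Hochberg adjusted p under 0.05 over all peaks). The losses were densest at the Rdh genes, where 12 of 14 peaks fell, and sparse at the Sult genes, where 4 of 139 fell. The median log2 fold change over the members was -0.35, against 0.03 over all peaks, and 234 of 283 members had a negative value. All 3 KO values lay below all 3 WT values in 110 members (38.9%, against 8.21% of all peaks) and above them in 3 members (7.30% of all peaks).

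Values are log2 reads per peak after the distributions of the 6 ChIP libraries had been matched, so each is relative to the other peaks of its library and holds no information on how much mark was present in all. Reads in H3K9me3 peaks ranged from 7062500 in KO replicate 1 to 11832198 in KO replicate 2, and reads in H3K9me2 regions from 18986927 to 39080740. The median member peak held 32.0 reads per library. Calls were more frequent at peaks with more reads, which were also wider. Among peaks with a mean of 50 or more reads, 32 of 98 members (32.7%) and 4.99% of all peaks were lower. Among shallower peaks, 10 of 185 members (5.41%) and 1.40% of all peaks were lower, with member medians of -0.34 and -0.38 log2 in the deep and shallow classes. A missed call in a shallow peak therefore does not show that the peak was unchanged.

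**Figure D1:**
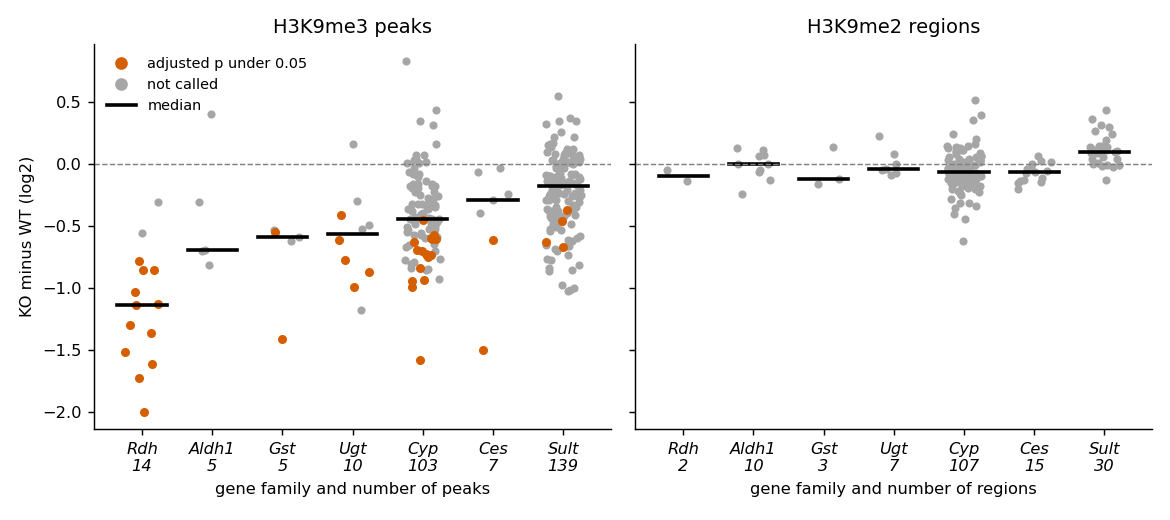
KO minus WT change (log2, vertical axis) of each H3K9me3 peak (left) and H3K9me2 region (right) by gene family, with the number of peaks or regions under the family name. Orange points passed an adjusted p under 0.05, grey points did not, and black bars are medians; the Rdh median for H3K9me3 is -1.13, and no H3K9me2 region was called.

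The retinol dehydrogenase genes had the largest change of the 7 families, with a median of -1.13 on the log2 scale. Their 14 peaks at 5 genes lay within 102.0 kb of chromosome 10 (chr10:127769551-127871550), and this span held no other peak. Rdh16 is a short-chain dehydrogenase that acts on retinol and steroids, and all 5 of its peaks fell, by 0.78 to 2.00 log2. The smallest changes were the least certain: the call at -0.78 was lost without WT replicate 1 or WT replicate 3, and that at -0.85 held without only 1 of the 6 libraries. The strongest was the intronic peak of which the centre is printed above (chr10:127817551-127822650). Its values were 7.82, 8.05 and 8.17 in WT and 5.76, 6.18 and 6.12 in KO, from 258, 254 and 330 recovered reads in WT and 38, 85 and 70 in KO. The WT libraries lay high and the KO libraries low, with no overlap, and the inputs held 102 (WT) and 103 (KO) reads. This was a change of -2.00 log2 (SE 0.12, limma adjusted p = 1.42e-16).

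Rdh9, a dehydrogenase of cis-retinol and androgens, had a pair of adjoining peaks just beyond its 3′ end. At the peak 254 bp downstream (chr10:127792951-127794450), WT values were 5.98, 5.60 and 5.86 and KO values were 3.47, 4.54 and 4.28. The groups did not overlap, and KO replicate 1 was the lowest library (log2 fold change -1.72, SE 0.24, limma adjusted p = 1.2e-06). Of the Rdh peaks with 20 or more reads in the WT input it had the highest ChIP over input in WT, 1.25 ± 0.18 log2, against -0.45 ± 0.46 in KO (SD, n = 3). The adjoining peak changed by -0.85 (limma adjusted p = 4.45e-06).

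The remaining genes of the array encode relatives of Rdh16. At the intronic Rdh16f2 peak (chr10:127870201-127871550), values were 5.85, 5.67 and 5.84 in the WT and 4.18, 4.48 and 3.87 in the KO libraries. All KO values lay over 1 log2 unit below all WT values (log2 fold change -1.61, SE 0.22, limma adjusted p = 1.04e-06). At Rdh19 (chr10:127857451-127858200), they were 4.89, 5.09 and 4.56 in WT and 3.93, 2.93 and 4.28 in KO, with reads in the KO libraries of only 11, 9 and 19. The groups were apart by less than 1 log2 unit at their closest values, and the call (log2 fold change -1.14, SE 0.30, limma adjusted p = 0.0221) was lost when WT replicate 1, WT replicate 2 or KO replicate 2 was left out.

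Rdh16f1 held 5 peaks, of which the 3 nearest its 3′ end were called. The narrowest of these (-1.13) kept its call without only 2 of the 6 libraries. The peak over an exon (chr10:127788001-127789950) had values of 6.33, 6.12 and 6.28 in WT and 5.20, 5.17 and 5.25 in KO, a tight separation in both groups (log2 fold change -1.03, SE 0.17, limma adjusted p = 2.78e-05). The peaks nearest the start of the gene changed by -0.56 (SE 0.21, limma adjusted p = 0.2) and -0.31 (SE 0.24, limma adjusted p = 0.74) and were not called. GENCODE places Rdh16f1 at 127759787 to 127792694 and Rdh9 at 127776386 to 127792697, so 4 of these peaks lie in both genes and cannot be assigned to either.

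Peaks beside the array were compared next. The nearest peak before the array, at Zbtb39 and 25.5 kb away, changed by 0.12 (SE 0.18, limma adjusted p = 0.899). On the other side, a peak with no annotated gene 67.8 kb beyond the array changed by -1.18 (SE 0.30, limma adjusted p = 0.0156), and the next, 100.5 kb away, by -0.58 (SE 0.17, limma adjusted p = 0.0464). The peak at Hsd17b6, 126.3 kb away, changed by -0.66 and was not called (limma adjusted p = 0.356).

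**Figure D2:**
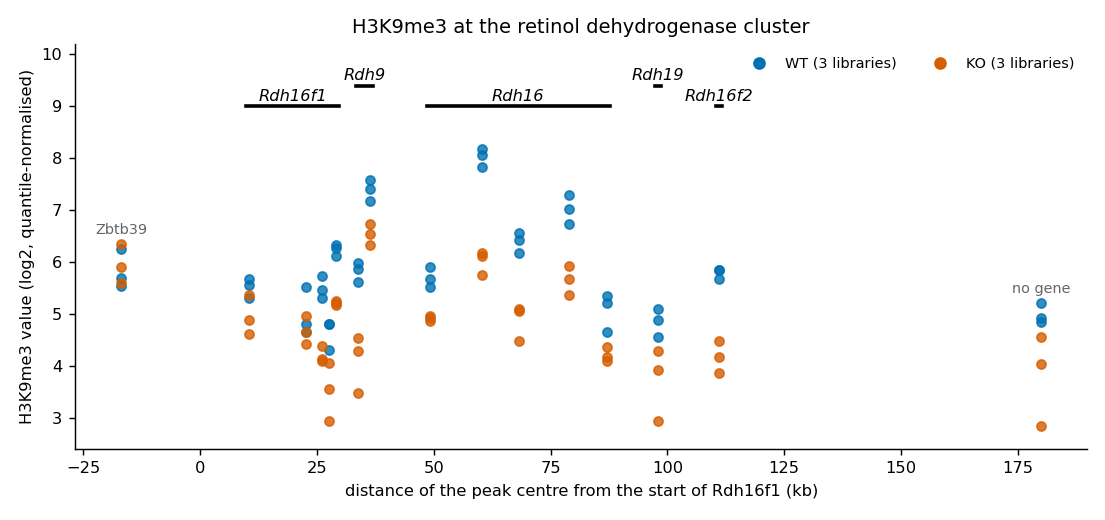
H3K9me3 value of each library (log2, vertical axis) at each peak of the Rdh array and the nearest peaks within 100 kb, by distance of the peak centre from the start of Rdh16f1 (kb). Blue points are WT and orange points KO, and black bars join the peaks annotated to a gene; from the Rdh16f1 peaks near its 3′ end to Rdh16f2 the KO points lie below the WT points, while at Zbtb39 they mix.

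Aldh1a1, which makes retinoic acid from retinal, held a small intronic peak with 12 to 17 reads in the WT libraries and 7 to 16 in the KO libraries (log2 fold change -0.30, SE 0.36, limma adjusted p = 0.856). Aldh1a7, a close copy of it, changed by -0.81 (SE 0.34, limma adjusted p = 0.301), Aldh1l1 by -0.70 (SE 0.23, limma adjusted p = 0.115), Aldh18a1 by -0.70 (SE 0.28, limma adjusted p = 0.261) and Aldh1l2 by 0.41 (SE 0.31, limma adjusted p = 0.722). None of the 5 Aldh1 peaks was called. Their median of 16.8 reads per library was the lowest of the families, and a missed call does not show that these peaks were unchanged.

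Among cytochrome P450 genes, 17 of 103 peaks (16.5%, against 2.46% of all peaks) fell and 0 rose, with a median of -0.44. With a mean of 50 or more reads the count was 15 of 36 (41.7%), against 4.99% of all peaks of that depth. The Cyp2c array on chromosome 19 held 6 of these called peaks among 34, at Cyp2c55, Cyp2c65, Cyp2c66, Cyp2c67 and Cyp2c37, enzymes that oxidize arachidonic acid and drugs. At the peak 3857 bp downstream of Cyp2c65 (chr19:39097801-39101550), values were 7.56, 7.29 and 7.36 in the WT and 6.33, 6.56 and 6.52 in the KO libraries. The groups were well apart (log2 fold change -0.93, SE 0.12, limma adjusted p = 3.1e-07). The second called peak of Cyp2c65 (-0.69) and that of Cyp2c55 (-0.60) each lost the call without any of 4 of the 6 libraries. Cyp2c66 had 6 peaks, of which the widest was called (-0.63) and the others changed by -0.38 to -0.79 without a call. Cyp2c38, Cyp2c39, Cyp2c40, Cyp2c54, Cyp2c68, Cyp2c29 and the pseudogene Cyp2c53-ps had no called peak.

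The Cyp4f array on chromosome 17, whose enzymes hydroxylate fatty acids and leukotrienes, had 4 of 6 peaks lower, at Cyp4f15 (2 peaks), Cyp4f37 and the pseudogene Cyp4f41-ps. The weaker Cyp4f15 peak (-0.60, limma adjusted p = 0.0482) kept its call without only 1 of the 6 libraries, and Cyp4f37 (-0.74) lost it without WT replicate 1 or KO replicate 1. Cyp4f41-ps had the largest fitted change of all Cyp peaks, -1.58 (SE 0.27, limma adjusted p = 9.64e-05). Its values were 5.85, 6.01 and 5.49 in the WT and 3.29, 4.03 and 5.29 in the KO libraries. The KO libraries were widely spread and KO replicate 3 came close to WT replicate 3, and DESeq2 on recovered reads did not call it (DESeq2 adjusted p = 0.407).

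Cyp2d12, of the mouse counterparts of a major human drug oxidase, carried a peak 322 bp upstream of the gene (chr15:82551751-82554750). Its values were 7.49, 7.32 and 7.31 in WT and 6.70, 6.40 and 6.06 in KO, without overlap (log2 fold change -0.99, SE 0.13, limma adjusted p = 4.86e-07). Of the Cyp peaks with 20 or more WT input reads it had the highest ChIP over input in WT, 1.47 ± 0.11 log2 (SD, n = 3), against 0.29 ± 0.31 in KO. Cyp2d26 fell by 0.84, a call lost without WT replicate 1 or KO replicate 1, and the 5 other peaks of the array were not called.

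Cyp3a41a and Cyp3a59, of the steroid- and drug-oxidizing Cyp3a group, fell by 0.57 (limma adjusted p = 3.61e-05) and 0.70 (limma adjusted p = 0.00245, with no call by DESeq2 at an adjusted p of 0.0619). Cyp4b1, which oxidizes fatty acids and some protoxins, fell by 0.73 at an intronic peak that was 94.7% masked (limma adjusted p = 6.33e-05). In the Cyp2j array of epoxide-forming enzymes, the called peaks were at the pseudogenes Cyp2j7-ps1 (-0.72) and Cyp2j15-ps (-0.45), and 20 peaks, at Cyp2j5, Cyp2j8, Cyp2j11, Cyp2j12, Cyp2j13 and pseudogenes, were not called. The read counts at Cyp2j15-ps lay above the range recovered exactly in 5 of the 6 libraries and were extrapolated there, while its log2 values are the deposited ones. No peak was called among the 13 of the Cyp2b array on chromosome 7, which also takes in Cyp2a genes and Cyp2s1, and the median peak held 16.2 reads per library.

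**Figure D3:**
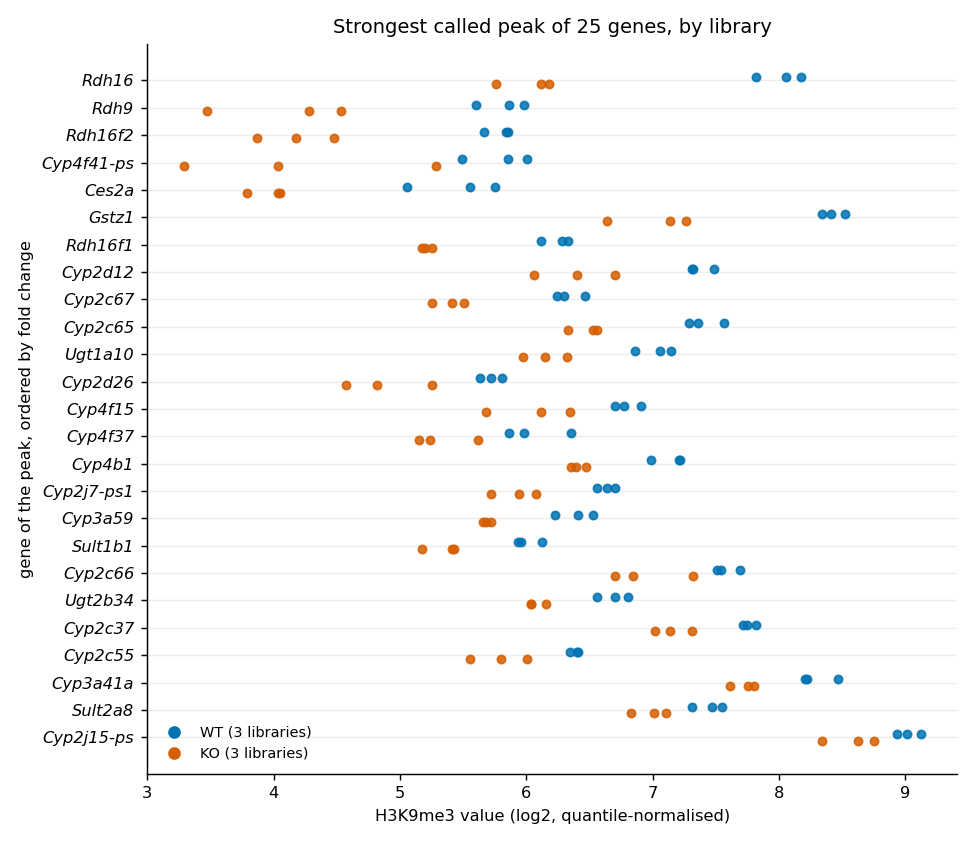
H3K9me3 value of each library (log2, horizontal axis) at the called peak of smallest p of 25 member genes, ordered by fold change. Blue points are WT and orange points KO (3 libraries each). In every row the 3 KO points lie left of the 3 WT points, most widely at Rdh16. The rows were chosen as called peaks by these same values, so such a separation was largely set in advance.

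Ugt1a10 conjugates phenolic compounds in the gut, and 4 of its 7 peaks fell. All 7 were intronic, and the Ugt1a genes share this locus (chr1:88055388-88219004), so the peaks belong to several of them. At the peak of smallest p (chr1:88074151-88077150), values were 7.06, 7.14 and 6.86 in WT and 5.97, 6.15 and 6.33 in KO. No value overlapped (log2 fold change -0.87, SE 0.13, limma adjusted p = 1.02e-05). The other called peaks changed by -0.99, -0.78 and -0.41, and the peak nearest the shared 3′ end by 0.16 (SE 0.17, limma adjusted p = 0.822). The peak that changed by -0.41 had the highest ChIP over input in WT, 1.26 ± 0.06 (SD, n = 3), and 0.75 ± 0.33 in KO, and its call was lost without WT replicate 2, WT replicate 3 or KO replicate 1. Ugt2b34, of the steroid-conjugating group, fell by 0.61 (limma adjusted p = 0.00378, and 0.0596 without WT replicate 3), and the peaks at Ugt2b5 (-0.29) and Ugt2a1 (-0.52) were not called.

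Gstz1, an isomerase of tyrosine breakdown, had the second smallest p of the members. Its peak covered an annotated transcript start and an exon (chr12:87149101-87156300). Values were 8.52, 8.41 and 8.34 in WT and 6.64, 7.14 and 7.26 in KO, from 434, 325 and 370 reads in WT and 69, 165 and 155 in KO. The lowest WT library was over 1 log2 unit above the highest KO library, and input reads were 152 and 151 (log2 fold change -1.41, SE 0.11, limma adjusted p = 5.55e-13). Gsta4, which detoxifies lipid peroxidation products, held the only other called peak with a transcript start (chr9:78181201-78183300). Its values were 6.26, 6.20 and 6.23 in WT and 5.55, 5.75 and 5.75 in KO, a small but clean separation (log2 fold change -0.54, SE 0.16, limma adjusted p = 0.0385). The call did not hold without any single library, with limma adjusted p from 0.0662 to 0.156. Its ChIP over input went from 1.41 ± 0.02 to 0.33 ± 0.10 (SD, n = 3), WT to KO, but the inputs held only 24 (WT) and 34 (KO) reads and themselves differed by 0.55 log2, so this gap is wider than that of the ChIP values. Gstp1 (-0.58) and the 2 peaks at Gstm2-ps1 (-0.53 and -0.62) were not called.

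Ces2a, an esterase that cleaves drug and lipid esters, fell at a peak 4417 bp downstream of the gene (chr8:104746051-104747250). Values were 5.55, 5.05 and 5.75 in the WT and 3.79, 4.03 and 4.05 in the KO libraries. The groups did not overlap, and all KO values were similar (log2 fold change -1.49, SE 0.24, limma adjusted p = 3.47e-05). Ces5a fell by 0.61 (limma adjusted p = 0.0267), a call that 4 of the 6 left-out libraries removed. The peaks at Ces1b, Ces1f and Ces1g changed by -0.03 to -0.29 and that at Ces2h by -0.39, with no call. Of these, Ces1b had the highest ChIP over input in WT of its family, 0.93 ± 0.41, and 0.45 ± 0.29 in KO (SD, n = 3).

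The sulfotransferases had the most peaks and few calls. Of their 139 peaks, 124 lay in the Sult2a array on chromosome 7, whose enzymes sulfate bile acids and steroids. Of these 124 peaks 3 fell (2.42%), a share near the 2.46% of all peaks, at Sult2a8, Sult2a7 and Sult2a-ps4. The median change was -0.17, and 94 peaks had a negative value. All KO values lay below all WT values in 34 of the 124 (27.4%, against 8.21% of all peaks) and above them in 2. Among Sult peaks with a mean of 50 or more reads, 4 of 46 were lower (8.7%, against 4.99% of all peaks of that depth). At Sult2a8 (chr7:14415451-14422050), over an exon, values were 7.47, 7.55 and 7.31 in the WT and 6.83, 7.11 and 7.01 in the KO libraries. The highest KO value came close to the lowest WT value, and the call (log2 fold change -0.46, SE 0.11, limma adjusted p = 0.00921) was lost without WT replicate 1, WT replicate 2 or KO replicate 1. Sult2a7 and Sult2a-ps4 each kept the call without only 1 of the 6 libraries. Sult2a3, Sult2a4 and Sult2a5, with 18, 24 and 17 peaks, had none called and medians of -0.14, -0.06 and -0.12. Sult1b1, which sulfates phenols and thyroid hormone, fell by 0.67 (limma adjusted p = 0.0147) at an intronic peak that was 99.1% masked, a call lost without WT replicate 1, WT replicate 3 or KO replicate 2. The Sult3a genes on chromosome 10 had 8 peaks with no call and a median of 0.09, and the widest, at Sult3a1, had a ChIP over input of 0.84 ± 0.10 in WT and 0.42 ± 0.11 in KO (SD, n = 3).

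With DESeq2 on recovered reads none of the 4 Sult calls held, and 8 Rdh, 10 Cyp and 23 member peaks in all were called. With 1 library left out, the calls numbered 8 (without WT replicate 1) to 11 at Rdh, 13 to 20 at Cyp, 3 (without WT replicate 3) to 6 at Ugt, 1 at Gst in each case, and 1 to 2 at Ces. The Sult count fell to 1 without WT replicate 1 or WT replicate 3 and to 2 without KO replicate 2. The number of members lower in KO otherwise ranged from 29 to 49 over the other tests and left-out libraries, and no member was higher in any of them. The share of all peaks called by these tests or without a library is not given here. These counts therefore cannot be set against a background.

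The same ChIP reads were also set against the input libraries. ChIP over input compares shares of reads on the log2 scale. The reads of a peak were taken as a share of the reads in all H3K9me3 peaks of that library. This share was set over the same share in the input of that genotype. A value is therefore relative to all peaks, and a negative value does not mean signal below the input. The median ratio over member peaks came to 0.24 ± 0.05 for WT and -0.14 ± 0.03 for KO (SD, n = 3), against -0.06 ± 0.01 and -0.02 ± 0.02 over all peaks. At Rdh peaks the WT libraries gave 0.60, 0.36 and 0.58 and the KO libraries -0.76, -0.78 and -0.81. Each KO library was below each WT library there, as it was for the Ugt, Cyp, Gst, Ces and Sult medians, whereas the Aldh1 libraries overlapped. At Sult peaks the medians were 0.13 ± 0.01 and -0.11 ± 0.03. These medians rest on 1 input per genotype, so the counting error of an input is common to its 3 libraries. The inputs differed by a median of 0.06 log2 (KO minus WT) over the members, but from -0.62 to 1.39 at single called peaks, and by over 2-fold at 11 members, of which 1 was called. The 42 called peaks were chosen by the same ChIP values, so a lower ratio in KO was largely set in advance. All 42 had a lower mean over input in KO, and at 38 of them each KO library lay below each WT library. The libraries overlapped at the other 4, where the KO input was the lower one. At Cyp3a59 (inputs of 55 and 35 reads, WT and KO) the means were 0.40 ± 0.16 and 0.29 ± 0.04, and at Cyp2j15-ps (252 and 190 reads) they were 0.86 ± 0.09 and 0.72 ± 0.25. At the Ugt1a10 peak that changed by -0.99 (57 and 35 reads) they were 0.50 ± 0.06 and 0.16 ± 0.29, and at the Rdh16 peak that changed by -0.85 (23 and 16 reads) 0.32 ± 0.35 and -0.05 ± 0.12 (SD, n = 3).

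**Figure D4:**
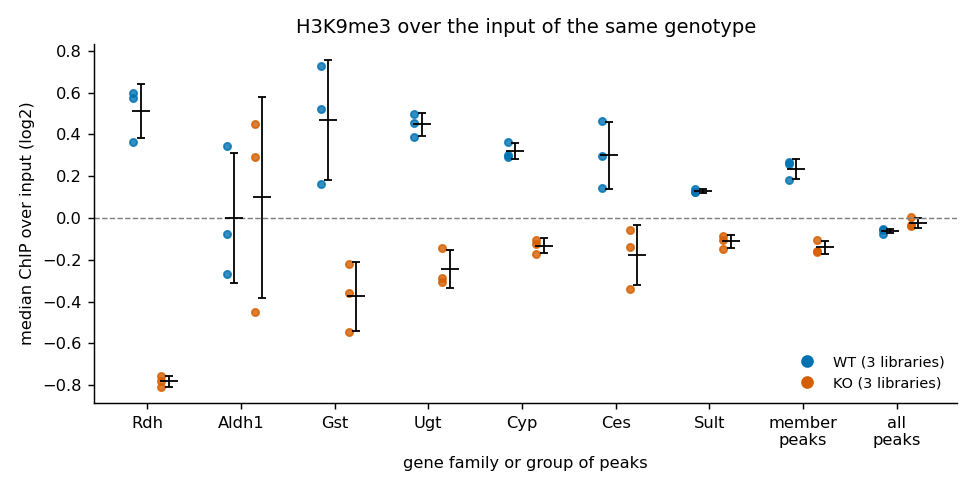
Median log2 ratio of ChIP to input (vertical axis) over the H3K9me3 peaks of each gene family, over all member peaks and over all peaks. Both were taken as shares of the reads in all H3K9me3 peaks. Points are libraries (blue WT, orange KO), and the black marks are the mean and SD of 3 libraries; the Rdh family shows the widest gap, from 0.51 in WT to -0.78 in KO.

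Most members lay in tandem arrays, and the peaks of other genes or of no gene inside the same spans were compared with them. The 12 arrays held 255 member peaks. In the Cyp2d span, 2 of 7 members and 16 of 30 other peaks were lower, with medians of -0.59 and -0.73. In the Cyp4f span, 4 of 6 members and 5 of 8 other peaks were lower, in the Cyp3a span 2 of 7 and 8 of 31, and in the Cyp2c span 6 of 34 and 8 of 30. No other peak in any of the 12 spans was higher. The lower values in these 4 spans were thus present also at peaks not annotated to the enzymes. In the Sult2a span 4 of 73 other peaks were lower, in the Cyp2b span 1 of 111 and in the Sult3a span 0 of 15. Outside the arrays, 5 of 28 member peaks were lower, at Ugt2b34, Sult1b1, Ces2a, Gsta4 and Gstz1.

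**Figure D5:**
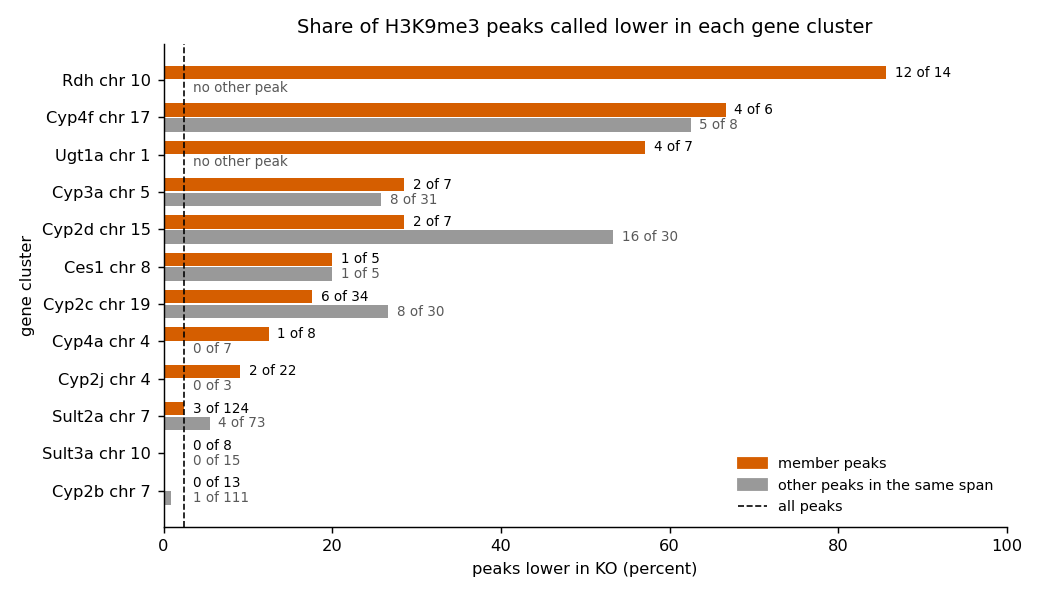
Percent of H3K9me3 peaks called lower in KO (horizontal axis) in each of the 12 gene arrays, for member peaks (orange) and other peaks within the same span (grey), with counts beside the bars. The dashed line is the share over all peaks, 2.46%; the Rdh array leads with 12 of 14, and the member bars of the Sult2a, Sult3a and Cyp2b arrays lie under it.

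Features that the rule did not use were then described. In GENCODE M21, 162 member peaks lay in introns, 40 touched an exon and 81 lay outside the gene, and among the called peaks these numbers were 22, 6 and 14. A transcript start fell in 5 member peaks, of which 2 were called. Member peaks were 59.0% masked at the median, against 35.2% of all peaks and 30.5% of those with an annotated gene. Called members were wider (median 2400 against 1050 bp) and slightly more masked (62.5% against 57.4%) and GC-rich (43.2% against 40.7%) than members not called. Among all peaks lower in KO the median masked share was 48.9%. The 43 member peaks at 16 pseudogenes included 4 called ones.

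Shared sequence was frequent among the members whether or not they were called. An alignment of at least 500 bases at 80% identity or more with a member peak on another chromosome was found for 19 of the 42 called peaks (45.2%) and 73 of the 241 others (30.3%). Since longer peaks can hold more such stretches, peaks of at least 2000 bp were also compared, of which 16 of 28 called and 43 of 64 other peaks had one. Between called peaks there were 18 such pairs of 861, and 15 of them joined different chromosomes. Cyp4b1, Sult2a8, Sult1b1 and Cyp2c66 were all aligned with each other in this way, like the Cyp4b1 and Sult2a8 stretches printed above. Reads from near-identical copies can be assigned to the wrong copy or removed by the mapping filter, and the effect of this on the values was not tested.

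The centre windows were also searched on both strands for GCGTG, the core bound by the aryl hydrocarbon receptor, and AGGTCA, the half-site of nuclear receptors such as those for retinoic acid. GCGTG was in 7 of 42 called and 21 of 241 other member windows (16.7% and 8.71%), against 7.48% of all peak windows of 300 bases and 11.1% of those of all peaks lower in KO. AGGTCA was in 4 and 43 (9.52% and 17.8%), against 14.7% and 18.4%. A CG was in 34 of 42 called windows (81.0%), against 77.5% of all and 81.5% of all lower ones. GCGTG itself contains a CG. The Ces2a window printed above held 1 GCGTG, and the Rdh16, Cyp2c65 and Gstz1 windows held neither of the longer motifs.

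H3K9me2 was examined at the same genes to see whether the second mark moved with the first. Of the 174 member regions, 0 were lower and 0 higher in KO, where 1 of all 47065 regions was lower (0.00212%; edgeR quasi-likelihood test, Benjamini-Hochberg adjusted p under 0.05). At an unadjusted p under 0.05, 7 member regions were lower and 6 higher, or 13 in all (7.47%, against 3.12% of all regions), and 6 of the 30 Sult regions passed, 5 of them higher. Limma after quantile normalization also gave 13 and DESeq2 gave 8 member regions. The share of all regions under limma or DESeq2 is not given here, and the 3.12% is from edgeR. The median log2 fold change was -0.03, with a range from -0.62 to 0.52. Over input, the median of the member regions was 0.02 ± 0.01 for WT and 0.06 ± 0.08 for KO (SD over the libraries). Over all regions it was 0.004 ± 0.001 and 0.008 ± 0.013. These ratios are relative to the reads in all regions and do not give the signal above background. How large a change could have been detected was not tested. Of the 283 member H3K9me3 peaks, 144 overlapped any H3K9me2 region, and 9 of the 42 called peaks did so. By family the count was 95 of 139 Sult, 43 of 103 Cyp and 2 of 14 Rdh peaks. Sult peaks made up most of the overlaps but held only 4 of the 42 calls. The share over all H3K9me3 peaks is not given here. The 7 member regions that overlapped a called H3K9me3 peak had changes from -0.22 to 0.00.

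H3K9me2 regions with an Rdh gene as their annotation numbered 2. The region at Rdh16f1 (chr10:127787401-127788450) lay under called H3K9me3 peaks. In CPM, reads scaled to the total in all regions of a library, it had 1.97, 1.63 and 2.20 in the WT and 1.64, 1.95 and 1.77 in the KO libraries. The groups overlapped (log2 fold change -0.13, SE 0.22, edgeR unadjusted p = 0.54), and the region at Rdh19 changed by -0.05. Over input, the median of the pair was -0.29 ± 0.11 for WT and 0.28 ± 0.13 for KO (SD, n = 3), the opposite direction, with inputs of 27 and 15 reads at Rdh16f1 and 55 and 44 at Rdh19. The smallest p among members belonged to Sult2a-ps4 (chr7:14175451-14184000), with 7.04, 5.96 and 5.95 CPM in WT and 7.79, 8.90 and 9.29 in KO. All KO values were higher there, but the region was not called (log2 fold change 0.43, SE 0.12, edgeR adjusted p = 1.0). Cyp2c29 had 60.8, 60.4 and 63.9 CPM in WT and 52.9, 56.1 and 56.7 in KO, a change of -0.17 (SE 0.05, edgeR adjusted p = 1.0). The regions of smallest p at Gstm2-ps1 (-0.16), Ces1g (-0.12), Ugt1a10 (0.23) and Aldh1a1 (-0.24) were not called either.

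Other genes of the same pathways, which the naming rule left out, were counted last. Of 81 such genes, 32 held an H3K9me3 peak, and 12 of their 69 peaks (17.4%) were lower and 0 higher, against 3.92% lower among all peaks with an annotated gene. Among regulators, 1 of 16 peaks was lower, at Hnf4g, a nuclear receptor of the enterocyte (-0.72, SE 0.11, limma adjusted p = 1.97e-05), and none at Ahr, Nr1i2 or Ppara. Among other phase 1 enzymes, which oxidize, reduce or hydrolyse their substrates, 5 of 15 were lower, 2 at Aox2, an aldehyde oxidase, and 1 each at Fmo1, Adh4 and Ephx2. Gsr, which regenerates glutathione, had 2 lower peaks and Gclc, which starts its synthesis, 1, out of 22 at other conjugation genes, while none of the 12 peaks at Ugt3a1, Ugt3a2 and Ugt8a was called (changes from -0.44 to 0.53). Among transporters 1 of 8 was lower, at Abcc4, an exporter of conjugates (-1.57, SE 0.23, limma adjusted p = 6.74e-06). Among genes of retinoid handling 2 of 8 were lower, at Bco1, which cleaves beta-carotene (-0.88, SE 0.18, limma adjusted p = 0.000796), and Scarb1, a receptor for carotenoid and lipid uptake (-0.60, SE 0.15, limma adjusted p = 0.00963). Of the 46 H3K9me2 regions at these genes 0 were called. Among the cell markers, 2 of 4 epithelial peaks were lower, at Lgr5 (-0.49) and Lyz1 (-0.52), 0 of 3 immune peaks, and 1 of 16 stromal and endothelial peaks, at Pecam1 (-0.71), with list medians of -0.39, -0.28 and -0.09. Of the stromal and endothelial peaks 14 were at Col3a1, with changes from -0.30 to 0.26, and that at Vim changed by -0.59 without a call. The part of cell content in the member values was not tested.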

How the data were processed

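ChIP-seq libraries for H3K9me3 and H3K9me2 from small intestinal crypts were grouped by the genotype and replicate number in their titles. According to the methods and the submitters' notes, the authors trimmed reads with Trim Galore 0.4.4, mapped them to GRCm38 with Bowtie2 2.3.2, kept reads above a mapping quality limit, removed duplicates, and ran MACS for each mark over the pooled ChIP libraries with the pooled inputs as control, so peaks were not called library by library. The authors deposited H3K9me3 as log2 reads per peak with matched distributions over the 6 ChIP libraries, and inputs as log2 reads without that step. The deposited H3K9me2 signal was the mean reads per MACS peak in a region, with the number of peaks, from which region sums within 0.00114 of whole numbers were formed. Columns of the authors' own test and the shorter tables of their changed peaks were not used for results; the read counts the authors deposited for 3 H3K9me2 peaks were only compared with the region sums.

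H3K9me3 was tested with limma 3.58.1 on the deposited log2 values of all peaks and H3K9me2 with edgeR 4.0.16 (quasi-likelihood, TMM) on the sums of all regions, with genotype as the only term, two-sided, and Benjamini-Hochberg adjustment. H3K9me3 reads were recovered from the ranks of the distinct values of a library; this returned the deposited values within 0.002 log2 for 99.7% of peaks, and the rest was extrapolated. They gave the depths, the ratios to input (1 read added) and the count tests with edgeR and DESeq2 1.42.0. Positions came from GENCODE M21, because the deposited words for upstream and downstream ran against the strand of the gene in all 81 member peaks outside their gene. Arrays were at least 5 member peaks chained within 500000 bp. Sequences and masking came from the RefSeq GRCm38.p6 genome, and peaks were aligned with blastn 2.17.0. R 4.3.3 and Python 3.11.15 were used.

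Members and lists were chosen with earlier results of these data known. The peaks named were the called peak of smallest p of up to 25 genes, every Rdh and Aldh1 gene, the peak of highest ChIP over input in WT per family (at least 20 input reads), and per family the H3K9me2 region of smallest p; others were named to complete counts, after their values were seen.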

Additional observations from a re-analysis of the deposited data

How the results depend on the processing

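The number of member peaks lower in KO was 42, and 23 with DESeq2 on recovered reads and 27 when only peaks that overlap their gene in the deposited annotation were kept, a smaller set by construction. It was 49 with edgeR and 29 at an adjusted p under 0.01. Leaving out 1 library gave from 29 (without WT replicate 1) to 38, and 25 of the 42 peaks, 8 of them Rdh, were called in each of these 6 fits. No member was called higher in any of these settings, and the called peaks kept their negative sign in all. The share of all peaks called is given only for the main fit. The median change was -0.35 and ranged from -0.32 to -0.36 over left-out libraries; without the Sult genes, a setting added after seeing the data, it was -0.50. At peaks with 20 or more input reads, the median ChIP over input moved to 0.16 (WT) and -0.22 (KO); the cause was not tested. The H3K9me2 median ranged from -0.08 to -0.001 over left-out libraries, with 0 calls under every alternative run (DESeq2, limma, the low-count filter).

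Replicate numbers did not pair the libraries: the correlation between a WT and a KO library of the same number, each as deviation from its group mean, was between -0.015 and 0.009 in H3K9me3 and between 0.016 and 0.183 in H3K9me2. With the replicate number as a block 42 member peaks were lower, of which 41 were among the 42 of the main fit. The medians were -0.35 and -0.04, and no H3K9me2 region was called.

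Single inputs, matched distributions and the 32.0 reads of a median member peak limit these values: losses of weak peaks can be missed, and a shift of the mark common to all peaks cannot be seen.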
